A study of Mus musculus with 12 samples.

Results

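The 10 genes described here, Sln, Myl4, Myl7, Bmp10, Mybphl, Sbk3, Tmem163, Dkk3, Kcnj3 and Kcnj5, are genes of atrial muscle among the 17536 genes of a heart RNA-seq data set. They were chosen from measured values of these same 12 libraries, for varying together and between the groups. Their levels, differences and correlations are therefore a description. No p-value is given for any of them, and given that choice a member called by a test is no evidence. All 10 passed the filter on low counts, as did 13489 genes in all. The libraries were made from heart RNA of mice of the outbred ICR strain, aged 10 weeks, with 3 libraries in each of 4 groups. The control group has no drug named in its label. The busulfan group was given busulfan, an alkylating chemotherapy drug, at 20 mg/kg. The control-FMT group is labelled as busulfan with FMT of a control kind. The AOS-FMT group is labelled as busulfan with FMT of a kind named for AOS at 10 mg/kg. That treatment label does not say how the AOS was given. The abbreviations AOS and FMT are not spelled out in the labels, which also state no dose of busulfan for the FMT groups. The series asks, per its design text, what FMT does in hearts injured by busulfan. Replicates are numbered, but nothing says that each is its own animal, so a p-value reflects the spread between libraries, which could be technical in part.

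Atrial and ventricular muscle share most of their contractile machinery but use different isoforms of several parts of it. The atria carry their own pair of myosin light chains, keep the calcium pump under sarcolipin where ventricles use phospholamban, and secrete natriuretic peptide. They also hold the potassium channel through which acetylcholine from the vagus slows the heart, a channel built of the products of Kcnj3 and Kcnj5. In an adult mouse the atria are a small part of the heart by mass.

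Library totals lay between 11333600 and 14335700 estimated counts. Levels are in CPM, counts scaled to library size with TMM factors, and comparisons between genes use TPM, which is per length. Cardiomyocyte transcripts were abundant in every library: Myh6, the main adult myosin heavy chain, lay between 36457 and 71854 CPM, and 10 general cardiomyocyte genes summed to 80194 to 135897 CPM. Of other tissues, 8 blood genes summed to 2529 to 14804 CPM, 8 liver genes to 7.11 to 576 CPM with the highest in AOS-FMT, and 3 lung genes to at most 0.549 CPM. The library totals and the mean log2 CPM of the 10 genes had r = 0.50 and rho = 0.55 over the 12 libraries.

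The levels of these genes differed widely between libraries of the same group as well as between groups. Averaged as log2 CPM over the 10 genes, the atrial score was 4.80, 8.92 and 8.23 in control replicates 1, 2 and 3. It was 1.24, 3.57 and 6.14 in busulfan, 3.63, 1.60 and 5.96 in control-FMT, and 5.45, 8.91 and 7.88 in AOS-FMT. Control replicate 1 and AOS-FMT replicate 1 thus fell below the highest library of the busulfan and control-FMT groups, and all groups overlapped on this score. Busulfan replicate 1 and control-FMT replicate 2 were the lowest libraries. In bulk tissue, fewer atrial cells in a sample and less of these RNAs per cell cannot be told apart.

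**Figure D1:**
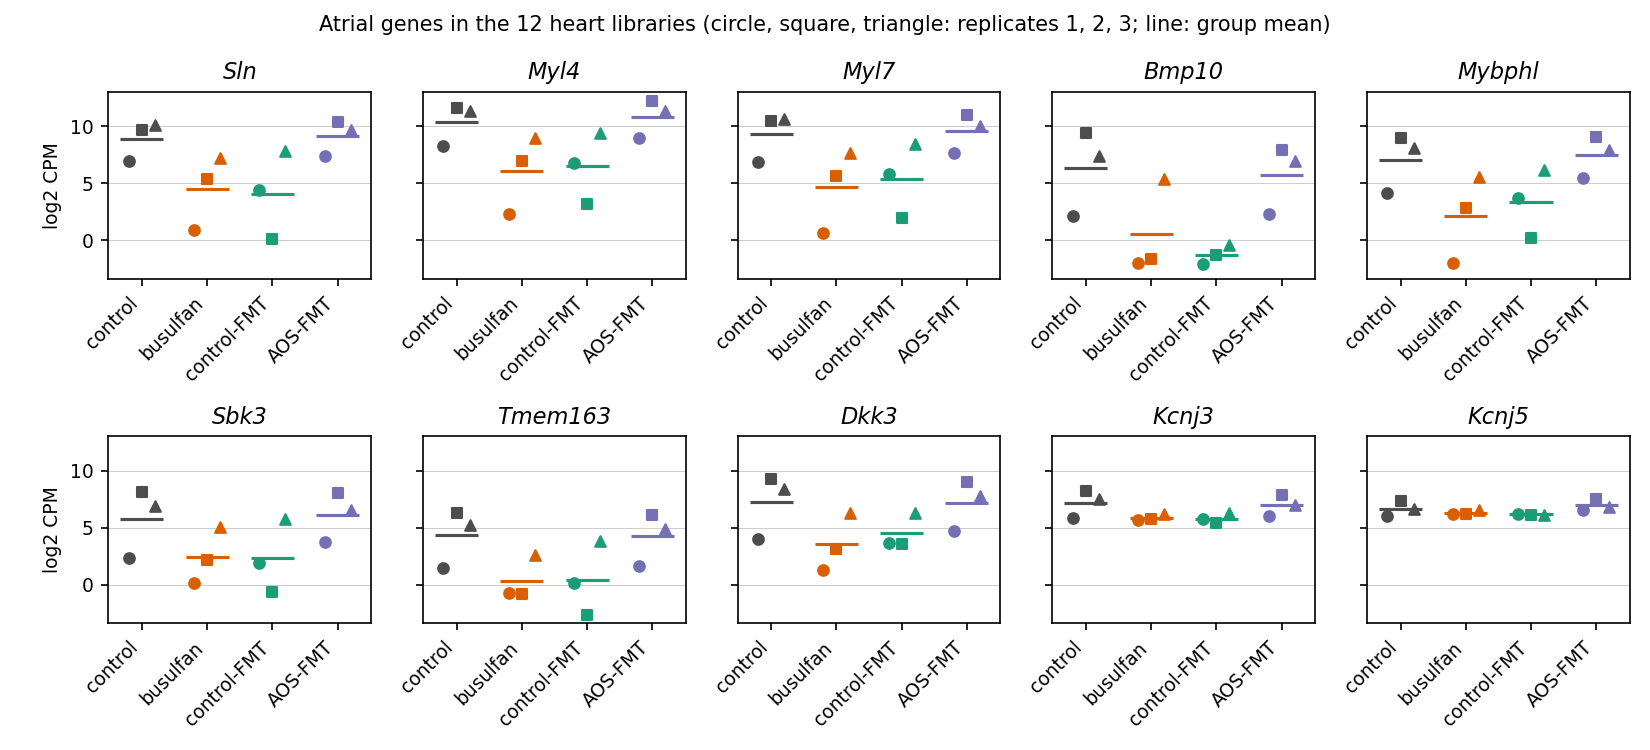
Level of each of the 10 atrial genes in log2 CPM (vertical axis) in the 12 libraries, by group (horizontal axis); symbols mark replicates 1, 2 and 3 and lines the group mean of 3 libraries. Sln, Myl4 and Myl7 span between 9.90 and 10.31 log2 units, whereas Kcnj5 spans 1.46, and the AOS-FMT replicates keep the order 2, 3, 1 for every gene.

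On the GRCm38.p6 assembly the 10 protein-coding genes lie on 7 chromosomes. Myl7 (NCBI gene 17898) is on chromosome 11 at 5896637 to 5898782 and Myl4 (17896) on the same chromosome at 104546017 to 104587215. The light chain genes are thus far apart. Sln (66402) is on chromosome 9 at 53850251 to 53853849 and Kcnj5 (16521) at 32314706 to 32344380. Bmp10 (12154) is on chromosome 6 at 87428994 to 87434512, Mybphl (68753) on chromosome 3 at 108364911 to 108380057 and Kcnj3 (16519) on chromosome 2 at 55411798 to 55598145. Sbk3 (381835) is on chromosome 7 at 4965247 to 4981041, Dkk3 (50781) on it at 112116019 to 112159482, and Tmem163 (72160) on chromosome 1 at 127490342 to 127678021.

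Since the members vary together, the bases just before their start sites were searched for motifs of heart transcription factors. RefSeq windows of GRCm38.p6 matched 8 of the 10 genes, Sln and Dkk3 being without one, and the 250 bases before each start were read on both strands. Stretches of 3 of the members with matches are shown 5′ to 3′ on the gene's strand, ending at the base before the start. The matches within a stretch are in capitals. Myl7 is shown at chr11:5898783-5898882 (minus strand), with CATTCC, the site of TEAD factors, and a CArG box, the site of serum response factor. Bmp10 at chr6:87428744-87428993 (plus) and Mybphl at chr3:108364751-108364910 (plus) are shown for AGATAA, a form of the site of GATA factors. Another form, TGATAA, was not searched for, and the Myl7 stretch holds it in small letters.
Myl7: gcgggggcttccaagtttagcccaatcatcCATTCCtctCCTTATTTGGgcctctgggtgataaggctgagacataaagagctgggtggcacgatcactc
Bmp10: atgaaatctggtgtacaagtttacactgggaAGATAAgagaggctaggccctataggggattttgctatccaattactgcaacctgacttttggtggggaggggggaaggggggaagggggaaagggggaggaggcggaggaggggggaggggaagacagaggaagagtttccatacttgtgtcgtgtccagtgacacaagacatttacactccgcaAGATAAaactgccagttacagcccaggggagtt
Mybphl: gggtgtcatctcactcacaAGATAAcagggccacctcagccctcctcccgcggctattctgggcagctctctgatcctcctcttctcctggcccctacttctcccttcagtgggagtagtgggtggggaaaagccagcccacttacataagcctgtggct

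AGATAA was found in 2 of the 8 members, at 219 to 214 and 33 to 28 bases before the start of Bmp10 and at 141 to 136 bases before that of Mybphl, and 9.99% of 32851 such windows hold it. CATTCC lay 70 to 65 bases before the start of Myl7, against 12.6% of all windows, and the CArG box 61 to 52 bases before, against 1.47%, with a match in Tmem163 as well. CAAGTG, the site of NKX2 factors, was in Myl7 and Kcnj5, against 11.6%. The match in Myl7 lay 168 to 163 bases before the start, outside the stretch shown. AGGTGT, of T-box factors, was in Kcnj3, against 11.8%. AGGTCA, the core site of nuclear receptors such as Nr2f2, and the site of MEF2 factors, CTA and TAG with any 4 bases between, were in none of the 8, against 14.02% and 3.20%. A match is a string of letters in a window and shows no binding.

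The myosin light chains of the atrium were, with Sln, the most abundant members by median TPM over the 12 libraries, at 1035 for Myl4, 846 for Sln and 827 for Myl7. Myl7 encodes the regulatory light chain and had 117, 1437 and 1577 CPM in control, 1.39, 50.1 and 199 CPM in busulfan, 55.5, 3.85 and 346 CPM in control-FMT, and 198, 1975 and 1063 CPM in AOS-FMT. The highest busulfan and control-FMT libraries stood above control replicate 1, and the lowest AOS-FMT library stood just below busulfan replicate 3. Myl4 encodes the essential light chain and had 300.3, 3050 and 2597 CPM in control, 4.96, 127 and 493 CPM in busulfan, 112, 9.16 and 685 CPM in control-FMT, and 507, 4892 and 2515 CPM in AOS-FMT. Every AOS-FMT library lay above every busulfan library for Myl4, by a narrow margin at AOS-FMT replicate 1. Between the lowest and the highest of the 12 libraries Myl7 differed 1418-fold and Myl4 986-fold.

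Mybphl encodes a relative of the myosin-binding proteins found in atrial muscle and the conduction system. Its levels were 17.6, 492 and 272 CPM in control, 0.0870, 7.13 and 47.9 CPM in busulfan, 13.2, 0.982 and 70.1 CPM in control-FMT, and 44.9, 525 and 236 CPM in AOS-FMT. The low value in busulfan replicate 1 is a single count. As with Myl7, the groups overlapped in each comparison.

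Sarcolipin, the product of Sln, is a short membrane peptide that inhibits the calcium pump of the sarcoplasmic reticulum. Sln had 124, 831 and 1117 CPM in control, 1.74, 41.9 and 148 CPM in busulfan, 21.1, 0.90 and 224 CPM in control-FMT, and 165, 1299 and 819 CPM in AOS-FMT. Its AOS-FMT libraries all exceeded its busulfan libraries, while control overlapped with busulfan and control-FMT because of replicate 1. The span from the lowest to the highest library was 1443-fold.

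Bmp10 encodes a secreted ligand of the bone morphogenetic protein family, which in the adult mouse heart comes mainly from the right atrium and reaches the endothelial receptor ALK1. It had 4.19, 666 and 172 CPM in control, 0.0870, 0.170 and 41.2 CPM in busulfan, 0.0784, 0.245 and 0.604 CPM in control-FMT, and 4.86, 248 and 124 CPM in AOS-FMT. The 3 control-FMT libraries held 1, 3 and 7 counts of it and lay below every control and every AOS-FMT library. Busulfan replicate 3, with 487 counts, was the exception among libraries of low level in the busulfan group, where the others held 1 and 2 counts.

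Dkk3 encodes a secreted protein of the Dickkopf family. It had 15.5, 614 and 339 CPM in control, 2.26, 8.32 and 77.0 CPM in busulfan, 12.1, 11.8 and 77.9 CPM in control-FMT, and 25.6, 510 and 214 CPM in AOS-FMT. All its groups overlapped, with replicate 1 of control and of AOS-FMT again the low libraries.

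Sbk3 encodes a member of a small family of SH3-binding domain kinases, and Tmem163 encodes a zinc transporter of membranes. Sbk3 had 4.96, 276 and 120 CPM in control, 0.957, 4.33 and 32.6 CPM in busulfan, 3.68, 0.491 and 52.8 CPM in control-FMT, and 12.9, 265 and 90.3 CPM in AOS-FMT. Tmem163 had 2.65, 76.8 and 38.3 CPM in control, 0.435, 0.424 and 6.0 CPM in busulfan, 0.941, 0 and 13.9 CPM in control-FMT, and 3.02, 68.3 and 29.7 CPM in AOS-FMT. The 0 in control-FMT replicate 2 allows a level of up to 0.245 CPM, taken as 3 counts in that library and covering counting error only. Neither gene separated any pair of groups.

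Kcnj3 and Kcnj5 encode the subunits of the acetylcholine-activated potassium channel. Kcnj3 had 56.3, 289 and 177 CPM in control, 49.3, 52.9 and 73.6 CPM in busulfan, 52.2, 42.7 and 75.9 CPM in control-FMT, and 65.9, 236 and 126 CPM in AOS-FMT. Kcnj5 had 65.1, 158 and 99.6 CPM in control, 71.8, 74.3 and 91.9 CPM in busulfan, 75.2, 68.7 and 68.7 CPM in control-FMT, and 94.7, 179 and 113 CPM in AOS-FMT. Their spans over the 12 libraries were 6.76-fold and 2.75-fold, far narrower than those of the other members. For Kcnj5 the lowest library was control replicate 1, and every AOS-FMT library exceeded every busulfan and every control-FMT library.

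The order of the members by level also changed between libraries. In AOS-FMT replicate 2 Myl4 stood at 10199 TPM, Myl7 at 8227 TPM and Sln at 6968 TPM, against 55.3 TPM for Kcnj5. In busulfan replicate 1 Kcnj5 at 19.5 TPM and Kcnj3 at 14.03 TPM were above Sln at 8.48 TPM, Myl4 at 5.59 TPM and Myl7 at 5.26 TPM. In control-FMT replicate 2 Kcnj5 at 20.2 TPM again stood above Myl7 at 16.7 TPM. The channel genes thus kept a level in libraries where the light chains and Sln nearly vanished.

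Against Myl7, the members differed in how closely they kept a proportion, with Myl4, Mybphl and Sln the closest. The ratio of a gene's CPM to that of Myl7, on the log2 scale, had an SD over the 12 libraries of 0.25 for Myl4, 0.39 for Mybphl and 0.60 for Sln. It was 1.05 for Sbk3, 1.26 for Tmem163, 1.39 for Dkk3, 2.44 for Bmp10, 2.59 for Kcnj3 and 3.00 for Kcnj5. Over the 10 libraries with at least 500 counts of Myl7, without busulfan replicate 1 and control-FMT replicate 2, the SD was 0.21 for Myl4, 0.38 for Mybphl, 0.39 for Sln, 0.57 for Dkk3, 0.65 for Tmem163 and 0.69 for Sbk3. In these libraries Bmp10 varied most, at 2.59, above Kcnj5 at 1.64 and Kcnj3 at 1.19. A straight line of CPM on Myl7 CPM met the zero of Myl7 at 46.2 CPM for Kcnj3, which is 16.0% of its highest level, and at 70.4 CPM for Kcnj5, or 39.3% of its highest. For the other 7 genes that intercept lay between −1.54% and 1.11% of the highest level. These ratios and lines were chosen after the values had been seen.

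Bmp10 departed from Myl7 in a different way, library by library. Of the summed counts of Bmp10 and Myl7, Bmp10 made up 3.46%, 31.7% and 9.81% in control and 2.40%, 11.2% and 10.4% in AOS-FMT. In busulfan the shares were 5.88%, 0.338% and 17.1%, and in control-FMT 0.141%, 6.0% and 0.174%. The shares of 5.88% and 6.0% rest on 1 of 17 and 3 of 50 counts, with exact 95% binomial intervals of 0.149% to 28.7% and 1.25% to 16.5%. Control-FMT replicate 3 held 4009 counts of Myl7 beside 7 of Bmp10 (interval 0.0701% to 0.359%), whereas busulfan replicate 3 held 2355 beside 487 (15.8% to 18.6%). These intervals cover counting error only.

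**Figure D2:**
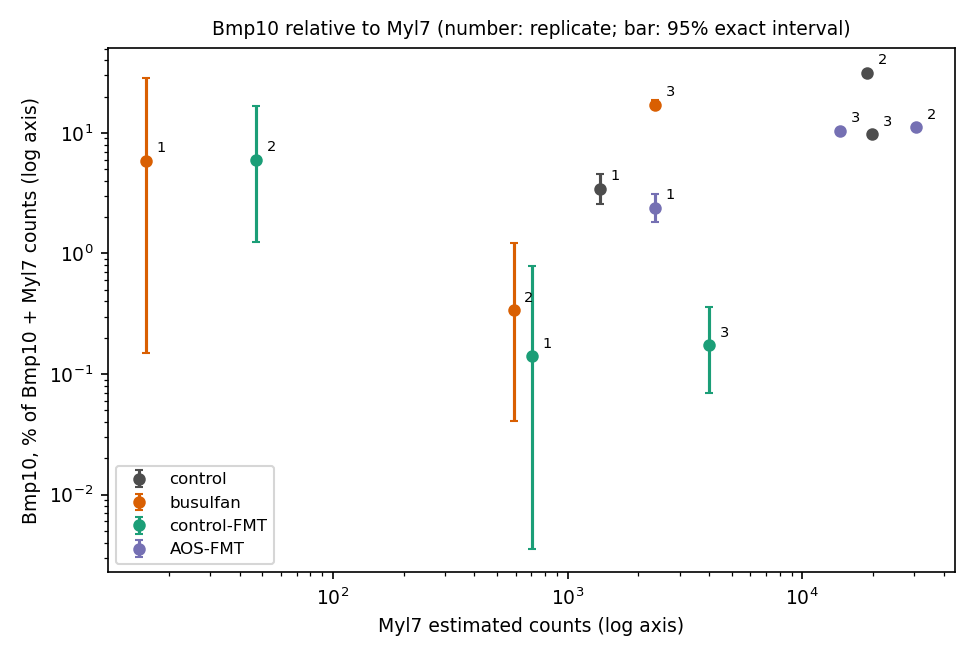
Bmp10 as a percentage of the counts of Bmp10 plus Myl7 (vertical, log axis) against Myl7 counts (horizontal, log axis) in the 12 libraries, coloured by group and numbered by replicate, with exact 95% binomial intervals. Control-FMT replicate 3 lies at 0.174% and busulfan replicate 3 at 17.1%, although they hold 4009 and 2355 counts of Myl7.

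In the comparisons between groups edgeR called none of the 10 genes. In busulfan against control all 10 were lower, with a median log2 fold change of −3.45 and single values from −4.34 to −0.44, while the median of all genes tested was −0.01. edgeR called 0 members there and 0.0593% of all genes at an adjusted p under 0.05. No member separated the groups, as against 14.1% of all genes. For Sln the log2 difference was −3.43 ± 1.87 (SE), from 691 ± 511 CPM in control to 64.0 ± 75.8 CPM in busulfan (SD, n = 3 each).

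Control-FMT against control gave all 10 genes lower, with a median log2 fold change of −2.98. edgeR called 0 members and 0% of all genes, and 1 member, Bmp10, lay wholly below control, as against 11.9% of all genes with groups apart. Bmp10 had 281 ± 344 CPM in control and 0.309 ± 0.269 CPM in control-FMT. DESeq2, tried as an alternative, called Bmp10, beside 90 of all genes. Myl7 had 1044 ± 806 and 135 ± 184 CPM, a log2 difference of −2.95 ± 1.86 (SE).

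AOS-FMT and control differed little in these genes, with 5 members higher, 5 lower and a median log2 fold change of −0.04. No member was called and none separated the groups, beside 0.0815% of all genes called and 10.4% with groups apart. Myl7 had 1079 ± 889 CPM in AOS-FMT. The extremes were Myl4 at 0.41 ± 1.69 (SE) and Bmp10 at −1.16 ± 1.80.

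Control-FMT against busulfan left 7 members higher and 3 lower, at a median of 0.36, while limma-voom gave a median of −0.11. The score difference of 0.08 ran from −1.13 without busulfan replicate 1 to 1.33 without busulfan replicate 3, so its direction turned with 1 library. No member was called and none separated the groups, where 0% of all genes were called and 12% had groups apart. Bmp10 was the farthest from 0 at −5.48 ± 3.30 (SE), with 487 counts in busulfan replicate 3 and no more than 7 in any other library of either group.

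AOS-FMT against busulfan gave all 10 higher, with a median of 3.42 and values from 0.70 for Kcnj5 to 3.88 for Tmem163. edgeR called 0 members and 0.0445% of all genes. Sln, Myl4 and Kcnj5, 3 of the 10, lay wholly above busulfan, where 21.2% of all genes had groups apart. Kcnj5 had 129 ± 44.5 CPM in AOS-FMT and 79.4 ± 10.96 CPM in busulfan, a log2 difference of 0.70 ± 0.30 (SE).

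AOS-FMT against control-FMT, the comparison of the kinds of FMT, also gave all 10 higher, with a median of 2.94. edgeR called 0 members and 0.0297% of all genes, and Bmp10 and Kcnj5 lay wholly above control-FMT, as against 13.8% of all genes with groups apart. DESeq2 called Bmp10 here as well, beside 32 of all genes. At an unadjusted p under 0.05 edgeR counted 1, 2, 0, 0, 1 and 2 members in these 6 comparisons, in the order given, beside 11.3%, 8.20%, 8.87%, 2.65%, 13.6% and 6.23% of all genes tested, and limma-voom called 0 at an adjusted p in each. The comparisons share groups with one another, so they are not independent of each other.

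As a group mean the score was 7.41 ± 1.78 in AOS-FMT, 7.32 ± 2.21 in control, 3.73 ± 2.18 in control-FMT and 3.65 ± 2.45 in busulfan (SD, n = 3). AOS-FMT and control differed by 0.09 and control-FMT and busulfan by 0.08, both far within the spread of their libraries. Control and AOS-FMT each exceeded busulfan and control-FMT by more than either SD, at means 3.59 to 3.76 apart, but the ranges overlapped in each case. Leaving out control replicate 1 took the busulfan difference from −3.67 to −4.94, and leaving out busulfan replicate 1 took it to −2.46. The difference of AOS-FMT from control turned to −1.17 without control replicate 1 and was 1.07 without AOS-FMT replicate 1.

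The libraries within a group fell in nearly the same order for every member. In AOS-FMT all 10 genes were highest in replicate 2, then 3, then 1, and 8 of 10 kept this order in control, where Sln and Myl7 had replicate 3 first. In busulfan 9 genes ran 3, 2, 1, with Tmem163 the exception, and in control-FMT 8 ran 3, 1, 2, all but Bmp10 and Kcnj5. Replicate numbers carry no order of their own, and only the agreement between genes is described.

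Over all 12 libraries the 45 pairs of members had Pearson r of log2 CPM between 0.69 and 1.00, with a median of 0.91, and a median Spearman rho of 0.97. Each point is a library, and the genes share its depth and scaling. After subtracting each group's mean the median r was 0.86, with a range of 0.44 to 1.00. Sln, Myl4, Myl7 and Mybphl kept r of at least 0.96 with one another within groups. Kcnj3 went with Kcnj5 at 0.93 and Bmp10 with Dkk3 at 0.95. The loosest pair was Sln with Kcnj5 at 0.44.

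**Figure D3:**
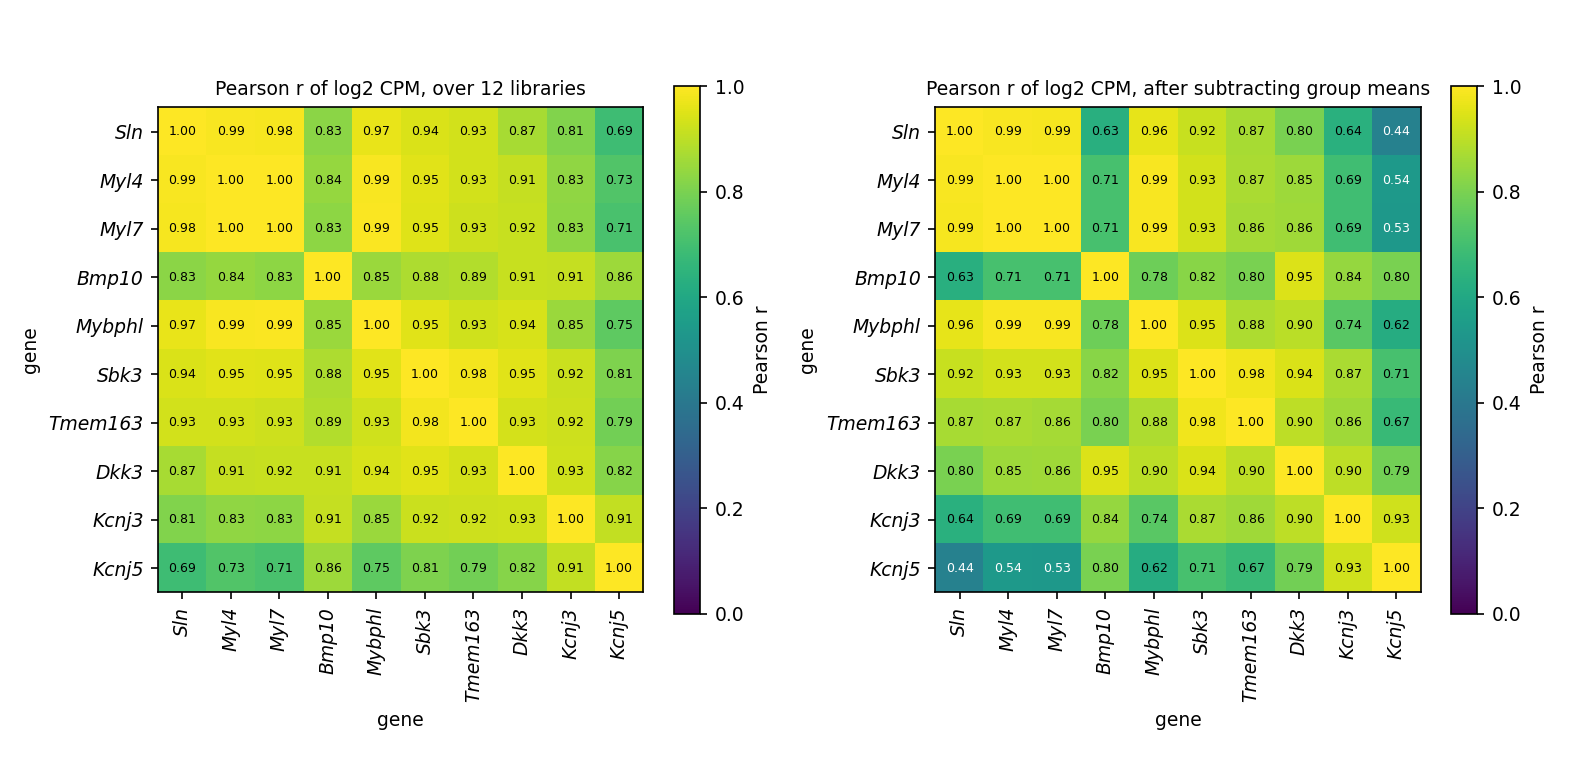
Pearson r between the log2 CPM of each pair of the 10 genes over 12 libraries (left) and after subtracting each group's mean (right), on a colour scale from 0 to 1. The 4 genes Sln, Myl4, Myl7 and Mybphl form a tight block in both panels, and Kcnj5 has the lowest values with Sln.

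Set beside its ventricular counterpart, each atrial isoform took a share of the pair's transcripts that ranged widely between libraries, up to 38.6% for Myl7, 57.6% for Myl4 and 76.0% for Sln. Myl7 made up 1.43%, 27.7% and 23.5% of the summed TPM of Myl7 and Myl2, the ventricular regulatory light chain, in control. The shares were 0.0172%, 0.636% and 2.85% in busulfan, 0.831%, 0.0628% and 5.89% in control-FMT, and 2.99%, 38.6% and 20.2% in AOS-FMT. Control and AOS-FMT each held 2 libraries above 20% and 1 below 3%, and no library of the other groups reached 6%.

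Myl4 over Myl4 plus Myl3, the ventricular essential light chain, gave 2.60%, 36.7% and 29.7% in control, 0.0306%, 1.32% and 5.48% in busulfan, 1.34%, 0.0944% and 8.62% in control-FMT, and 6.63%, 57.6% and 32.7% in AOS-FMT. The libraries kept the order they had for Myl7, except that AOS-FMT replicate 3 and control replicate 3 changed places. Sln over Sln plus Pln, which encodes phospholamban, gave 14.4%, 58.2% and 65.1% in control, 0.225%, 5.66% and 15.9% in busulfan, 2.90%, 0.129% and 24.3% in control-FMT, and 17.7%, 76.0% and 56.5% in AOS-FMT. Of the pump itself, Atp2a2 lay between 8371 and 12167 CPM, a span under 1.5-fold.

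**Figure D4:**
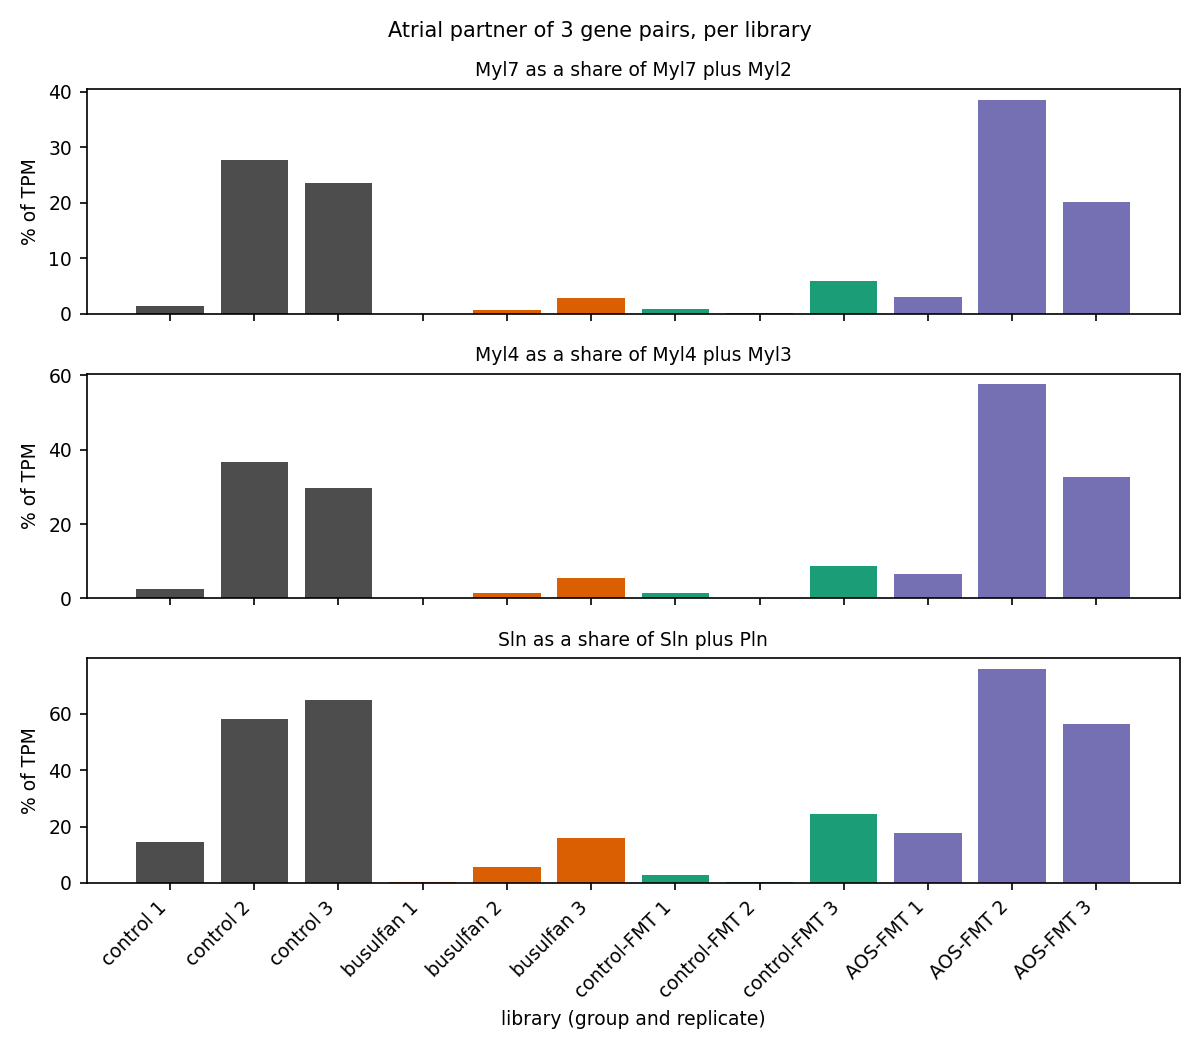
Share of the summed TPM taken by the atrial partner of each pair (vertical axis, percent) in each of the 12 libraries (bars, coloured by group). Replicates 2 and 3 of control and of AOS-FMT stand above all other libraries in each panel.

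Ventricular genes ran the other way. Myl2 lay at 10021, 4634 and 6409 CPM in control, 10006, 9613 and 8356 CPM in busulfan, 8187, 7674 and 6826 CPM in control-FMT, and 7941, 3879 and 5196 CPM in AOS-FMT. Its r with the atrial score was −0.81 (rho −0.78). Of 12 ventricular genes 11 had a negative r, with a median of −0.46 against a median of 0.00 for all other genes tested, the lowest being Irx4, a ventricular transcription factor, at −0.83. Kcnd2 was the exception at 0.18. All 10 general cardiomyocyte genes also had a negative r, with a median of −0.66, among them Actn2 at −0.80 and Myh6 at −0.60. Within groups the median was −0.63 for the general cardiomyocyte genes but weaker, at −0.24, for the ventricular genes. There Myl2 kept −0.77, while Hey2 stood at −0.01 and Irx5 at 0.03. Neither list held a gene called by edgeR in any comparison. In AOS-FMT against busulfan DESeq2 called Myh7, a ventricular gene, at a log2 fold change of −0.89. It also called Mybpc3, a general cardiomyocyte gene, at −0.59, beside 122 of all genes.

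Other atrial genes outside the 10 were read from lists drawn up with results of these data known. In the group of peptide, sarcomere and other genes, 6 of 6 had a positive r with the score, with a median of 0.92. Nppa, which encodes atrial natriuretic peptide, had r = 0.97 and lay at 1434, 12084 and 8106 CPM in control, 251, 855 and 2217 CPM in busulfan, 458, 401 and 2821 CPM in control-FMT, and 952, 17507 and 7305 CPM in AOS-FMT. Pam, the enzyme that amidates secreted peptides, had 0.91, Stard10 0.95 and Myl1 0.90. Sbk2, the neighbour of Sbk3 on chromosome 7 with 840 bases between them, had 0.92 and ranged from 7.61 to 216 CPM. The Nppa difference of busulfan from control was −2.70 ± 1.35 (SE) on the log2 scale and was not called (edgeR adjusted p = 0.501).

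Atrial transcription factors had smaller spans. Tbx5 ranged from 22.7 to 146 CPM with r = 0.86, and Nr2f2, known for holding atrial identity, from 8.90 to 28.7 CPM with r = 0.79. Gata4, which all heart muscle uses, had r = −0.29. Among electrical genes, Gja5, a gap junction protein of the atria, had r = 0.92 and Chrm2, the muscarinic receptor that opens the Kcnj3 and Kcnj5 channel, 0.79. Kcnk3 had −0.43 and Kcna5 −0.14. Of the 6 transcription factors 5 had a positive r, and of the 6 electrical genes 4, with medians over all 6 of 0.59 and 0.40.

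The partners of the members were mixed. Of 11 genes of the G protein pathway that gates the channel, 6 had a positive r and the median was 0.01. Gnao1, a G protein alpha subunit, stood at 0.92, Rgs6, which ends the signal, at 0.87, and Rgs4, another such regulator, at −0.69. Of 12 genes of the BMP10 pathway, 10 had a positive r, with a median of 0.48. Smad6, an inhibitor induced by BMP signalling, was highest at 0.88, ranging from 22.6 to 75.5 CPM, the receptor partner Eng had 0.68 and the receptor Acvrl1 had −0.43. Of 7 measured genes of WNT ligands and Dickkopf receptors, 6 had a positive r, among them Axin2 at 0.79, and Kremen1 stood at −0.57. Of 8 genes of the sarcolipin pathway 3 had a positive r, and Pln stood at −0.65.

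edgeR called 0 of the 154 list genes in any of the 6 comparisons, and at an unadjusted p under 0.05 counted 35, 21, 17, 6, 64 and 25 of them, in the order of the comparisons above. Over all 13489 genes the same counts were 1527, 1106, 1196, 358, 1841 and 840. limma-voom called 0 list genes at an adjusted p in each, and DESeq2 called 8, 6, 6, 0, 8 and 1 of them, beside 121, 90, 151, 2, 122 and 32 of all genes. The lists of atrial companions held no gene called by DESeq2. The list of peptide, sarcomere and other atrial genes had median log2 fold changes of −2.04, −2.07, 0.22, 0.10, 2.20 and 2.49 in that order. The ventricular list had 0.23, 0.10, −0.30, −0.06, −0.65 and −0.42, opposite in sign to the atrial list in each of the 6 comparisons.

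Several lists of markers of other tissue moved with the score as well, but not all. All 8 fibroblast genes had a positive r, with a median of 0.76 and Pdgfra highest at 0.93, and their sum lay at 2625 to 4340 CPM in control, 2009 to 2606 in busulfan, 2785 to 3273 in control-FMT and 2858 to 5232 in AOS-FMT. Of 9 genes of epicardium and mesothelium 8 had a positive r, with a median of 0.70, and their sum lay at 9.25 to 163 CPM in control, 8.57 to 30.3 in busulfan, 16.4 to 38.7 in control-FMT and 20.0 to 117 in AOS-FMT. Msln, Lrrn4 and Muc16 were at 0 in at least 1 library. Of 8 genes of endocardium and endothelium 5 had a positive r, led by Npr3, the clearance receptor of natriuretic peptides, at 0.94, while Kdr had −0.67. Their sum lay at 944 to 1297 CPM in control, 989 to 1106 in busulfan, 967 to 1148 in control-FMT and 1175 to 1432 in AOS-FMT. All 8 blood genes had a positive r, with a median of 0.65, and their sum lay at 3206 to 14804 CPM in control, 2529 to 4773 in busulfan, 3623 to 6545 in control-FMT and 5753 to 8511 in AOS-FMT. Of 6 adipose genes measured 5 had a positive r, with a median of 0.62, and the 8 listed summed to 37.6 to 61.2 CPM in control, 34.99 to 63.3 in busulfan, 35.6 to 104 in control-FMT and 53.3 to 86.0 in AOS-FMT. Of 8 macrophage genes 7 had a positive r, with a median of 0.46, but −0.05 within groups, and they summed to 752 to 1054 CPM in control, 483 to 699 in busulfan, 581 to 1119 in control-FMT and 761 to 1110 in AOS-FMT. Other lists stood nearer to 0 over the 12 libraries, though not all of them did within groups. Of 7 genes of vascular smooth muscle and large vessel 3 had a positive r, with a median of −0.07. The medians were 0.13 for liver, 0.21 for nerve, 0.30 for sinoatrial node and 0.31 for skeletal muscle genes. Within groups the medians were 0.33 for vascular smooth muscle, 0.19 for liver, 0.10 for nerve and 0.27 for skeletal muscle genes. That of the sinoatrial node genes was 0.67 within groups, near the 0.69 of the fibroblast genes. The part of all these tissues in the levels of the atrial genes was not tested.

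**Figure D5:**
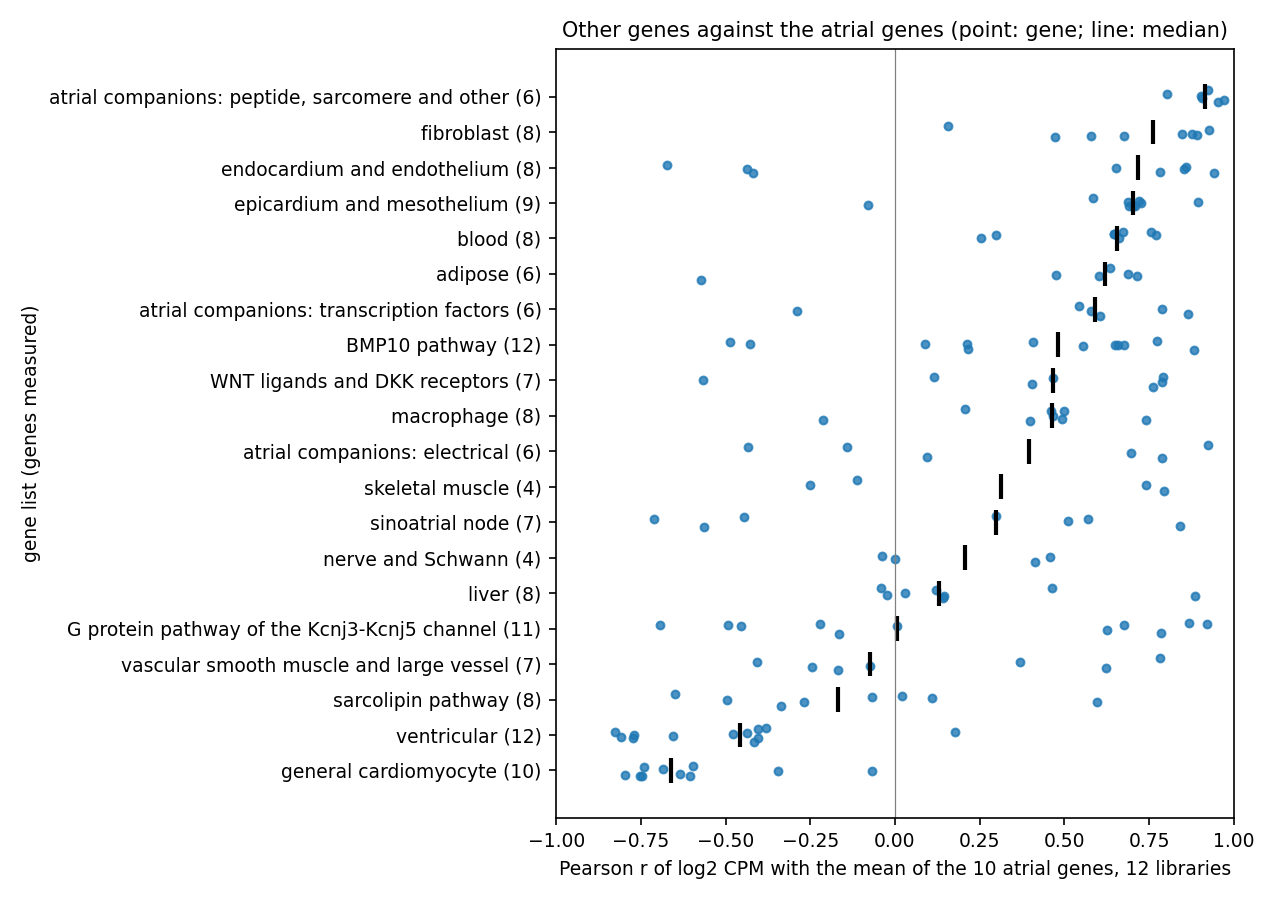
Pearson r of each list gene's log2 CPM with the atrial score over 12 libraries (horizontal axis), by gene list (vertical axis, number of genes measured in brackets); points are genes and lines medians. The atrial peptide and sarcomere genes have a median of 0.92 and the general cardiomyocyte genes −0.66.

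Of the 13479 other genes tested, 86 or 0.638% had r above 0.9 with the score and 6 had r below −0.9. The 6 highest with a mean of at least 1 CPM were Fgf12, an intracellular relative of fibroblast growth factors that modulates sodium channels, at 0.99, Sds, a serine dehydratase, at 0.98, Cilp2 at 0.98, Nppa and Cracd at 0.97, and Mlana at 0.97. Fgf12 ranged from 0.522 to 112 CPM and had rho = 0.97. With the 2 libraries farthest from the median score left out, busulfan replicate 1 and control-FMT replicate 2, its r was 0.99. Within groups, the highest were Fgf12 at 0.99, Cilp2 at 0.99, Rxfp1, a receptor of relaxin, at 0.98, and Rab33a, Cracd and Sds at 0.96.

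The 6 lowest were Slc9a3r2 at −0.93, Tfeb, a transcription factor of lysosomes, at −0.92, Tha1 at −0.91, Sox18, a transcription factor of endothelium, at −0.91, Mrpl34, a mitochondrial ribosomal protein, at −0.91 and Bri3bp at −0.90. Their spans were narrow. Tfeb ranged from 55.1 to 72.3 CPM and Sox18 from 84.4 to 164 CPM.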

How the data were processed

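Estimated read counts per gene, TPM and FPKM of the 12 libraries were deposited by the authors in 1 table, per the file headers, and 94.7% to 95.3% of the estimated counts in a library were whole within 1e-09. Per the submitters' processing notes, Bowtie 0.12.2 and the build mm10 were used. How reads were assigned to genes, and with which annotation, is not given in the sources used here. No per-sample column was left unmapped, and the authors' group means were not used. Of 17536 gene IDs, 17487 matched GRCm38.p6.

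Estimated counts were rounded, filtered with filterByExpr to 13489 genes, scaled by TMM and fitted in edgeR 4.0.16 (R 4.3.3, robust quasi-likelihood, group only, all 12 libraries), with Benjamini-Hochberg adjustment and a threshold of 0.05 over 6 contrasts. log2 CPM used a prior count of 2. DESeq2 1.42.0, limma-voom (limma 3.58.1), other scalings, filters and left-out libraries were alternatives. The procedure was tested on simulated data. The members and lists were chosen with earlier results of these data known. Named were all members, their paralogs and partners, and the 6 genes most and least like the score (predicted genes skipped). Up to 4 genes of highest mean CPM per companion or pathway list were named too. Kcnd2, Irx4, Irx5, Hey2, Actn2, Gnao1, Rgs6, Rgs4, Smad6 and Axin2 were named after their values were seen. So were the tissue markers and the list genes called under an alternative. Library totals set the precision of low levels.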

Additional observations from a re-analysis of the deposited data

How the results depend on the processing

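Of the values compared under an alternative, 394 stayed within a set tolerance and 14 moved further. For a count the tolerance was 1.5 times. For a score difference it was the pooled SD of the groups compared, 1.99 to 2.33, so a turn of sign could stay within it. For correlations of members it was the SD of r over the gene pairs, which is no spread between replicates. Members called stayed at 0 under every alternative run but DESeq2. That called 1, Bmp10, in control-FMT against control, beside 90 of all genes, and in AOS-FMT against control-FMT, beside 32. List genes called, 0 in each comparison, were 8 with DESeq2 in busulfan against control, 6 in control-FMT against control, 6 in AOS-FMT against control, 8 in AOS-FMT against busulfan and 1, Fgb, in AOS-FMT against control-FMT. With no scaling beyond library size 1 list gene, Cdh5, was called in AOS-FMT against control. With 1 library left out the count ran from 0 to 1 in busulfan against control (Pf4 without control replicate 1, Cd163 without control-FMT replicate 2, Id3 without AOS-FMT replicate 1). It ran from 0 to 2 in AOS-FMT against control (Fgb and Apoa2 without AOS-FMT replicate 1, Apoa2 and Apoa1 without its replicate 3) and from 0 to 1 in AOS-FMT against busulfan (Id3). The cause was not tested. Same-numbered libraries had correlations of their deviations from −0.16 to 0.45, and 4 of 12 matched best with their own number. With so few libraries these values cannot decide whether the numbers pair the samples. With the replicate block 0 members were called in each comparison. The members' median log2 fold change by limma-voom was 0.19 in AOS-FMT against control and −0.11 in control-FMT against busulfan, opposite in sign to edgeR's −0.04 and 0.36. The score difference of busulfan from control was −4.78 over Sln, Myl4, Myl7 and Bmp10 and −2.93 over the other 6 genes. Bmp10, Mybphl, Sbk3 and Tmem163 at 7 counts or fewer in a library are limited by depth.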
